A study of Mus musculus with 12 samples.

Results

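The fibrillar collagens and type VI collagen were followed here through the 7 genes Col1a1, Col1a2, Col3a1, Col5a1, Col5a2, Col6a1 and Col6a2, out of 18193 genes measured. All probe sets that the annotation of the array assigns to exactly 1 gene symbol, and to one of these genes, were taken, which gave 15 of 45037 probe sets. No probe set of these genes was left out for its value. The genes themselves were chosen with earlier results of these data known.

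RNA of cultured mouse pancreatic cancer cells was hybridized to Affymetrix mouse GeneChip arrays, with 3 arrays in each of 4 groups. fl-CCs lack p53 and came from tumors of mice with LSL-Trp53 fl/+, and mt-CCs express mutant p53 and came from tumors of mice with LSL-Trp53 R172H/+. Both kinds of mice also carried LSL-K-ras G12D/+ and Pdx1-Cre. The other groups were fl-CCs that had received an empty vector (EV) or human p53 R175H by transfection, the latter being the counterpart of the mouse R172H allele. All 4 groups thus share the activated K-ras allele and a Cre driven by the promoter of the pancreatic gene Pdx1. The medium was DMEM with FBS for every group, and that of EV and p53 R175H cells also held G418 at 0.6 mg/ml, so that transfection, selection and the drug cannot be told apart between EV and fl-CCs. The design text names a single line for each genotype, so that p53 status and line cannot be told apart between mt-CCs and fl-CCs. The methods call the 3 arrays of a group biological triplicates, and the p-values measure only the spread between them. Trp53 itself was not analysed here.

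Collagens are triple helices of 3 chains. Type I collagen, the main fibril protein of scar and tumor stroma, is built from the chains of Col1a1 and Col1a2, and type III collagen, which is common in young and healing tissue, from the chain of Col3a1 alone. Type V collagen, built mostly from the chains of Col5a1 and Col5a2, starts fibrils and limits their width. Type VI collagen forms beaded filaments near the cell surface and needs the chains of Col6a1, Col6a2 and a further long chain such as that of Col6a3. In pancreatic cancer fibroblasts are known as the main source of fibrillar collagen, and the tumor cells themselves can also make it.

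The windows just upstream of the transcription starts are shown for members with unlike patterns over the 4 groups, which are Col3a1 (near background in all groups but mt-CCs), Col1a2 (group means under 5 throughout), Col5a1 and Col6a1 (measured in all groups). They hold the 250 bases before the RefSeq start on the gene's strand in build GRCm38.p6, at chr1:45311288-45311537 on the plus strand for Col3a1, chr6:4505368-4505617 on the plus strand for Col1a2, chr2:27886175-27886424 on the plus strand for Col5a1 and chr10:76726045-76726294 on the minus strand for Col6a1. Capitals mark matches on either strand to a CCAAT box, a TATA box written as TATAAA, a GC box written as GGGCGG, an AP-1 site written as TGANTCA or the NFκB consensus.
Col3a1: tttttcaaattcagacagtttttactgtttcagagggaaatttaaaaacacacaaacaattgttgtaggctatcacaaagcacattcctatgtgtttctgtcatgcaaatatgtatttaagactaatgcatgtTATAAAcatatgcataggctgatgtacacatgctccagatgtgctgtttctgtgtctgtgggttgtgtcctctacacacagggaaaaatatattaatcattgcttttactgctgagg
Col1a2: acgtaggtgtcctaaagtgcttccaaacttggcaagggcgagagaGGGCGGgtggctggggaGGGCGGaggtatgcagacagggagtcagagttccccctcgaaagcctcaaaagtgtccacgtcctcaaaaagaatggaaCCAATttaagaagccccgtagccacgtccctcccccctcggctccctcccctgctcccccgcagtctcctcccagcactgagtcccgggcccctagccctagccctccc
Col5a1: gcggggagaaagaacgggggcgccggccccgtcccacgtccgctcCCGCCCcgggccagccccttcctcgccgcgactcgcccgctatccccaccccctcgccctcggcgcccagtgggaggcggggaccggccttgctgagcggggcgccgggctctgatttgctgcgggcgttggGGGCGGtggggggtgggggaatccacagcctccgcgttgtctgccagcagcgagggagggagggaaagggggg
Col6a1: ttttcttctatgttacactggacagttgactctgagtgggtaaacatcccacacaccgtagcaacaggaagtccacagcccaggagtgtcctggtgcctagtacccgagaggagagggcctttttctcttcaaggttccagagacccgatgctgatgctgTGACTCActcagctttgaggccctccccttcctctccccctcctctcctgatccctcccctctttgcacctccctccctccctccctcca
The Col3a1 window had a single match, to TATAAA at bases -117 to -112, and a GC content of 35.2% against a median of 52.4% over all windows. The Col1a2 window held CCAAT from base -109 and GC boxes from bases -205 and -188, with 62.0% GC. The Col5a1 window, with 76.4% GC, held GC boxes from bases -205 and -73, the first on the opposite strand. The Col6a1 window had an AP-1 match at bases -90 to -84 and 56.0% GC. Of 32851 RefSeq windows of this length, CCAAT was found in 33.8%, TATAAA in 12.4%, the GC box in 32.7%, the AP-1 site in 6.75% and the NFκB consensus in 7.25%. A match is a run of letters and was not tested as a binding site. For Col6a2 the windows of both RefSeq starts held GC boxes, and one also an NFκB match. Windows for Col1a1 and Col5a2 were not used here.

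The values are log2 RMA values, in which 1 unit is a doubling of signal. Over all probe sets they ran from 1.71 to 14.64 with a median of 5.59, and a value under 5 is called near background here. Arrays of 1 group correlated at 0.994 to 0.996 and arrays of different groups at 0.959 to 0.990 over all probe sets. The number of arrays limits the precision. A level is not compared between genes, since probe sets differ in how strongly they bind. Tests were made with limma across all probe sets, and a probe set counts as changed where its p, adjusted by the method of Benjamini and Hochberg, was at most 0.05.

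The fibrillar and type VI collagen transcripts stood higher in mt-CCs relative to fl-CCs at 11 of 15 probe sets and lower at 0, where 15.4% of all probe sets were higher. By gene, 6 of 7 members were higher, against 22.2% of all genes. Col5a2 was the member that did not pass. The median difference of the 15 probe sets was 1.44, and that of all probe sets was -0.02.

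**Figure D1:**
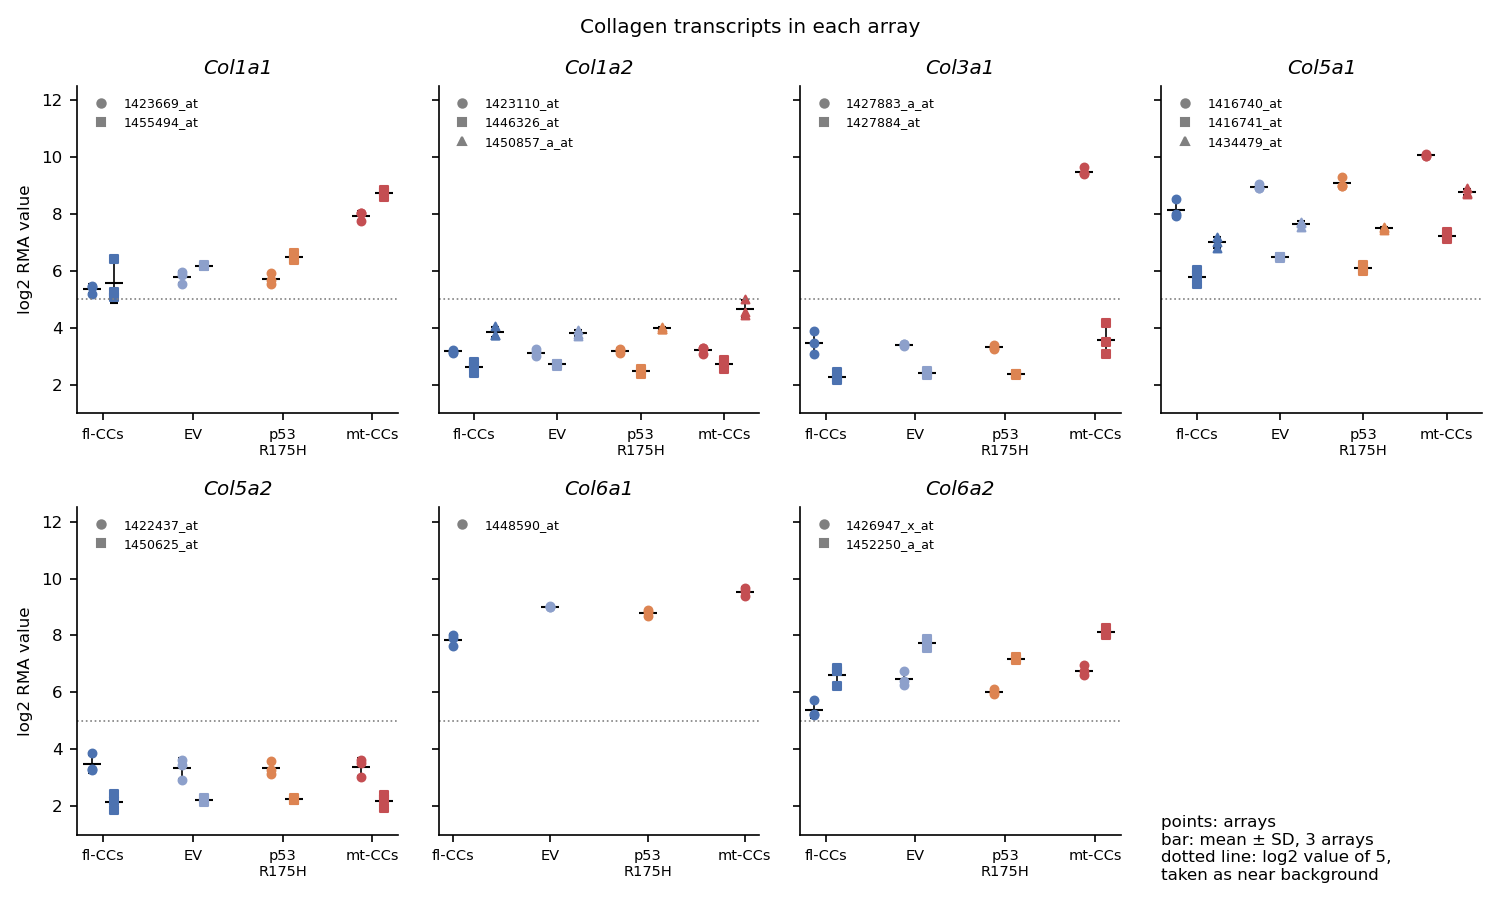
Log2 RMA value of each probe set of the 7 collagen genes (vertical axis) in the 4 groups, with a point for each array and bars for the mean ± SD of 3 arrays; the dotted line marks 5. Col3a1 lies near 9.5 in mt-CCs and under 5 elsewhere at probe set 1427883_a_at, Col1a1, Col5a1 and Col6a1 are highest in mt-CCs, and Col5a2 stays under 5 in all arrays.

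Col3a1, the chain of type III collagen, had the widest gap between the lines among the members measured. Probe set 1427883_a_at read 9.64, 9.44 and 9.40 in mt-CCs, and 3.89, 3.46 and 3.10 in fl-CCs. It read 3.44, 3.45 and 3.36 in EV cells, and 3.31, 3.26 and 3.40 in p53 R175H cells. All 3 mt-CC arrays thus lay far above the other 9, all of which were near background. Measured from a value of 5, Col3a1 rose in mt-CCs by at least 4.50 (limma, adjusted p = 5.20e-11 for the fitted difference). The same bound of at least 4.50 held against EV cells (adjusted p = 4.53e-11) and against p53 R175H cells (adjusted p = 4.46e-11). The second probe set, 1427884_at, passed the test in the same direction (adjusted p = 3.32e-04), yet all of its arrays lay under 5, with 3.08, 4.16 and 3.51 in mt-CCs, so no difference is given for it.

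Col1a1 and Col1a2, the partner chains of type I collagen, differed in whether their group means lay above 5. Col1a1 at 1423669_at read 5.19, 5.44 and 5.48 in fl-CCs and 8.04, 7.76 and 8.04 in mt-CCs. At 1455494_at it read 5.09, 5.26 and 6.41 in fl-CCs and 8.59, 8.78 and 8.86 in mt-CCs. The lines did not overlap at either probe set, as at 41.8% of all probe sets, and the third fl-CC array stood apart from the other two at the second. Col1a1 rose by 2.58 ± 0.14 (SE, n = 3 and 3, limma adjusted p = 2.84e-08) and by 3.15 ± 0.26 (adjusted p = 1.47e-06). All fl-CC arrays lay under 6 at 1423669_at, and measured from 6 the rise there was at least 1.95.

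Col1a2 had group means under 5 at all probe sets. Of its 3 probe sets, 1423110_at lay between 3.02 and 3.30 over all 12 arrays and 1446326_at between 2.38 and 2.89. The third, 1450857_a_at, read 3.76, 3.77 and 4.05 in fl-CCs and 4.55, 4.46 and 5.01 in mt-CCs. It passed the test (limma adjusted p = 6.74e-04) with a mean of 4.67 in mt-CCs, under 5, so no difference is given, and the other probe sets did not pass. A value near background at a probe set does not show that a transcript is absent.

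The type V chains parted in the same way. Col5a1 was well measured in every group. At 1416740_at it read 8.01, 7.95 and 8.51 in fl-CCs and 10.11, 10.04 and 10.05 in mt-CCs, a rise of 1.91 ± 0.14 (limma adjusted p = 5.36e-07). It rose by 1.44 ± 0.12 at 1416741_at (adjusted p = 1.82e-06) and by 1.77 ± 0.10 at 1434479_at (adjusted p = 6.55e-08). The lines overlapped at none of the 3 probe sets, as at 41.8% of all probe sets. Col5a2, its partner, lay between 2.92 and 3.86 at 1422437_at and between 1.88 and 2.44 at 1450625_at over all 12 arrays. Both were near background in every group, with adjusted p of 0.812 and 0.905 between mt-CCs and fl-CCs.

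Both measured type VI chains were higher in mt-CCs. Col6a1 at 1448590_at read 7.61, 8.02 and 7.91 in fl-CCs and 9.55, 9.39 and 9.68 in mt-CCs, a rise of 1.69 ± 0.11 (limma adjusted p = 2.19e-07). Col6a2 at 1452250_a_at read 6.75, 6.84 and 6.22 in fl-CCs and 8.03, 8.25 and 8.09 in mt-CCs, a rise of 1.52 ± 0.15 (adjusted p = 6.58e-06). At its other probe set, 1426947_x_at, Col6a2 rose by 1.37 ± 0.16 (adjusted p = 3.12e-05). The long chain Col6a3 was under 5 in all 12 arrays, with means from 3.64 in fl-CCs to 3.99 in mt-CCs.

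EV cells are fl-CCs that went through transfection and selection, and part of the collagen group moved with that step. Between EV cells and fl-CCs, 6 of 15 probe sets were higher and 0 lower, where 6.45% of all probe sets were higher, and by gene 3 of 7 members were higher against 10.4% of all genes. These genes were Col5a1, Col6a1 and Col6a2, the members well measured in fl-CCs.

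Both type VI chains were higher in EV cells. Col6a1 read 9.01, 9.02 and 9.01 in EV cells, above all fl-CC arrays, and was higher by 1.17 ± 0.11 (limma adjusted p = 4.68e-05). Col6a2 in EV cells read 7.58, 7.88 and 7.77 at 1452250_a_at and 6.27, 6.74 and 6.39 at 1426947_x_at, higher by 1.14 ± 0.15 (adjusted p = 3.94e-04) and 1.07 ± 0.16 (adjusted p = 9.74e-04). The EV and fl-CC arrays did not overlap at these probe sets, as at 30.6% of all probe sets. Col5a1 was higher by 0.79 ± 0.14 at 1416740_at, where EV cells read 8.90, 9.05 and 8.90 (adjusted p = 0.00313). Its other probe sets were higher by 0.68 ± 0.12 at 1416741_at (adjusted p = 0.00329) and 0.65 ± 0.10 at 1434479_at (adjusted p = 0.00175).

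Col1a1 did not pass between EV cells and fl-CCs. At 1423669_at it read 5.96, 5.54 and 5.84 in EV cells, a difference of 0.41 with a 95% interval from 0.11 to 0.72 before adjustment (limma adjusted p = 0.0813). At 1455494_at it read 6.17, 6.18 and 6.20 in EV cells, a difference of 0.59 with an interval from 0.03 to 1.16 (adjusted p = 0.181). This second value moved with the fl-CC arrays. Without fl-CCs replicate 3 the difference was 1.01 and the adjusted p 3.96e-04, without replicate 1 it was 0.35 (adjusted p = 0.501) and without replicate 2 0.43 (adjusted p = 0.429), and array weights gave 0.36 (adjusted p = 0.434). Without EV replicate 2 the first probe set gave 0.53 with an adjusted p of 0.0424. Col3a1, Col1a2 and Col5a2 were near background in both groups.

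**Figure D2:**
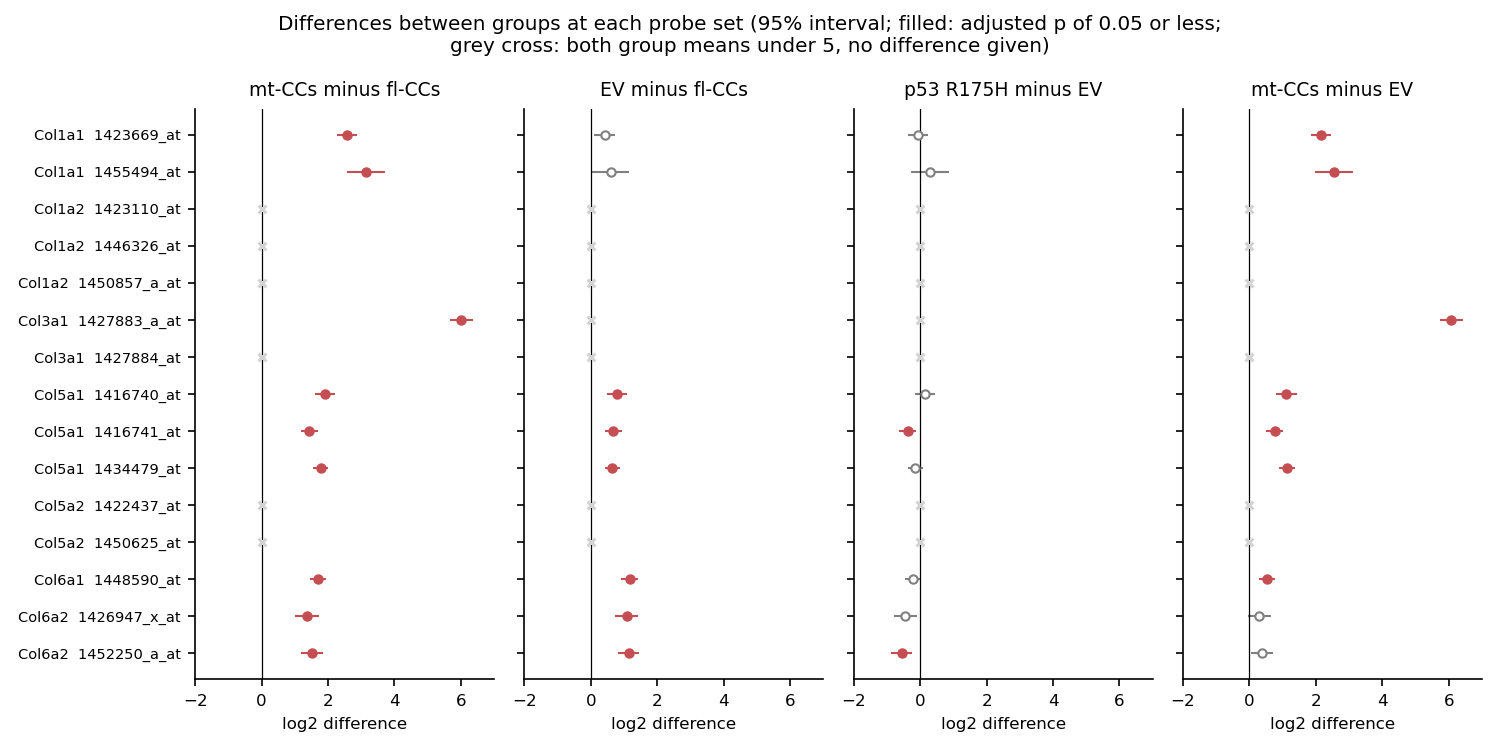
Log2 difference (horizontal axis) with its 95% interval, before adjustment, at each of the 15 probe sets in 4 comparisons; filled points have a limma adjusted p of 0.05 or less, and grey crosses stand where both group means lie under 5. Col5a1, Col6a1 and Col6a2 are filled to the right for mt-CCs and for EV cells against fl-CCs, and the 2 filled points for p53 R175H against EV lie to the left.

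Against EV cells, their matched control, p53 R175H cells had 0 of 15 collagen probe sets higher and 2 lower, where 10.2% of all probe sets were lower. By gene, 2 of 7 members were lower against 15.1% of all genes, and 15.3% of all genes were higher. The members' share at the probe sets was thus near that of all probe sets, and their median difference was -0.06 against -0.01.

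Col6a2 fell by 0.55 on the log2 scale at 1452250_a_at (SE 0.15, limma adjusted p = 0.0194), where p53 R175H cells read 7.26, 7.13 and 7.17. These lay all under the EV arrays and all over the fl-CC arrays. Of all probe sets, 36.9% had no overlap between p53 R175H and EV cells and 33.1% none between p53 R175H cells and fl-CCs. At 1426947_x_at, with 6.03, 5.94 and 6.11, the difference of -0.45 did not pass (adjusted p = 0.0709), though it did without fl-CCs replicate 2 (0.0349). The call at 1452250_a_at was lost without EV replicate 2 (adjusted p = 0.0756), EV replicate 3 (0.0564), p53 R175H replicate 2 (0.0639) or p53 R175H replicate 3 (0.0557). Col5a1 fell by 0.38 at 1416741_at (adjusted p = 0.0470), where p53 R175H cells read 6.22, 6.07 and 6.02. Its other probe sets did not pass, with differences of 0.14 at 1416740_at (adjusted p = 0.565) and -0.15 at 1434479_at (adjusted p = 0.398), so the probe sets of Col5a1 did not give 1 direction. Leaving out any of 9 arrays in turn, all 6 EV and p53 R175H arrays among them, ended the call at 1416741_at, with adjusted p from 0.0516 to 0.144.

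Col6a1 in p53 R175H cells read 8.88, 8.70 and 8.83, a difference of -0.21 from EV cells with a 95% interval from -0.46 to 0.04 (limma adjusted p = 0.249). Col1a1 read 5.56, 5.67 and 5.92 at 1423669_at, a difference of -0.06 with an interval from -0.37 to 0.24 (adjusted p = 0.821). At 1455494_at it read 6.64, 6.43 and 6.38, a difference of 0.30 with an interval from -0.27 to 0.87 (adjusted p = 0.499). These intervals leave out the rises of Col1a1 and Col6a1 seen between mt-CCs and fl-CCs.

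The endogenous and the transfected difference share no array and were compared directly, as the difference of mt-CCs and fl-CCs minus that of p53 R175H and EV cells. This was above 0 at 11 of 15 probe sets and below 0 at none that passed, where 13.6% of all probe sets passed above 0. Col1a1 differed by 2.64 ± 0.20 and 2.85 ± 0.37, and Col6a1 by 1.90 ± 0.16 (limma adjusted p = 9.09e-07, 9.88e-05 and 2.72e-06). All 3 Col5a1 probe sets passed, with values from 1.76 to 1.92, and both Col6a2 probe sets, with 1.81 and 2.08. Both probe sets of Col3a1 and 1450857_a_at of Col1a2 passed as well, near background in the groups named above.

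Over the 4 groups the order of levels thus took 3 forms. Col3a1 was near background in fl-CCs, EV and p53 R175H cells, which did not differ, and stood high in mt-CCs. Col1a1 had means above 5 in all groups, with no neighbouring pair of fl-CCs, EV and p53 R175H cells parted by the test at either probe set. The step from the highest of these to mt-CCs was 2.17 at 1423669_at (limma adjusted p = 1.46e-07) and 2.25 at 1455494_at (adjusted p = 2.70e-05). At 1455494_at p53 R175H cells and fl-CCs, not neighbours in that order, did differ, by 0.90 (adjusted p = 0.0376), though their arrays overlapped.

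Col5a1, Col6a1 and Col6a2 climbed in steps, with fl-CCs lowest and mt-CCs highest. For Col6a1 the order was fl-CCs, p53 R175H, EV and mt-CCs, with means of 7.85, 8.80, 9.01 and 9.54. The first step of 0.96 (limma adjusted p = 1.86e-04) and the last of 0.53 (adjusted p = 0.00325) passed, and the middle step did not. For Col6a2 at 1452250_a_at the order was the same, with means of 6.60, 7.19, 7.74 and 8.12. Here the steps from fl-CCs to p53 R175H (0.58, adjusted p = 0.0205) and on to EV passed, and the last step to mt-CCs, 0.38 with a 95% interval from 0.06 to 0.71 before adjustment, did not (adjusted p = 0.0676). The same last step at 1426947_x_at was 0.29 with an interval from -0.05 to 0.64 (adjusted p = 0.193). For Col5a1 the middle order varied, with EV under p53 R175H at 1416740_at and over it at 1416741_at and 1434479_at. The step from fl-CCs to p53 R175H at 1416741_at did not pass (0.30, adjusted p = 0.126). In mt-CCs Col5a1 stood above EV cells at all 3 probe sets, by 1.11, 0.76 and 1.13 (adjusted p = 6.01e-05, 3.83e-04 and 4.28e-06).

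Counted over all 15 probe sets, 9 were higher in mt-CCs than in EV cells, against 16.4% of all probe sets, and 11 were higher in mt-CCs than in p53 R175H cells, against 16.9%. In p53 R175H cells 6 were higher than in fl-CCs, against 7.77%, and these belonged to Col1a1, Col5a1, Col6a1 and Col6a2. None was lower in any of these comparisons. The comparisons share groups, so their counts are not separate evidence. The Col6a1 rise of 1.69 in mt-CCs and that of 1.17 in EV cells, for example, both rest on the same fl-CC arrays.

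The other collagen chains did not form 1 block with these genes. Of 35 other chains measured at 67 probe sets, 8 were higher in mt-CCs relative to fl-CCs and 3 lower, as counted over the following groups. Among 6 further fibrillar chains, 2 were higher and 1 lower, against 22.2% and 21.1% of all genes. Col11a1, a cartilage-type fibril chain, rose by at least 1.12 (limma adjusted p = 1.23e-05), and Col5a3, a further type V chain, passed with both means under 5. Col27a1 went the other way, from a mean of 7.72 in fl-CCs to 4.80 in mt-CCs, lower by at least 2.72 (adjusted p = 5.86e-09).

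None of 3 further type VI chains passed. Of 9 fibril-associated chains 1 was higher, Col16a1, by 2.13 ± 0.11 (limma adjusted p = 2.09e-08). Of 10 network and anchoring chains 3 were higher, Col8a1 by 1.74, Col4a6 by at least 0.53 and Col7a1 by 0.52. A further 2 were lower, the basement membrane chains Col4a1 (-0.77) and Col4a5 (-0.54). The Col4a1 value came from its most significant probe set, and its brightest probe set did not pass (-0.19, limma adjusted p = 0.145). Of 7 membrane-spanning and multiplexin chains 2 were higher, Col15a1 by 1.49 and Col18a1 by 1.22. The median over the genes of these 5 groups lay between 0.004 and 0.15, beside 1.69 for the 7 members and -0.01 for all genes.

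**Figure D3:**
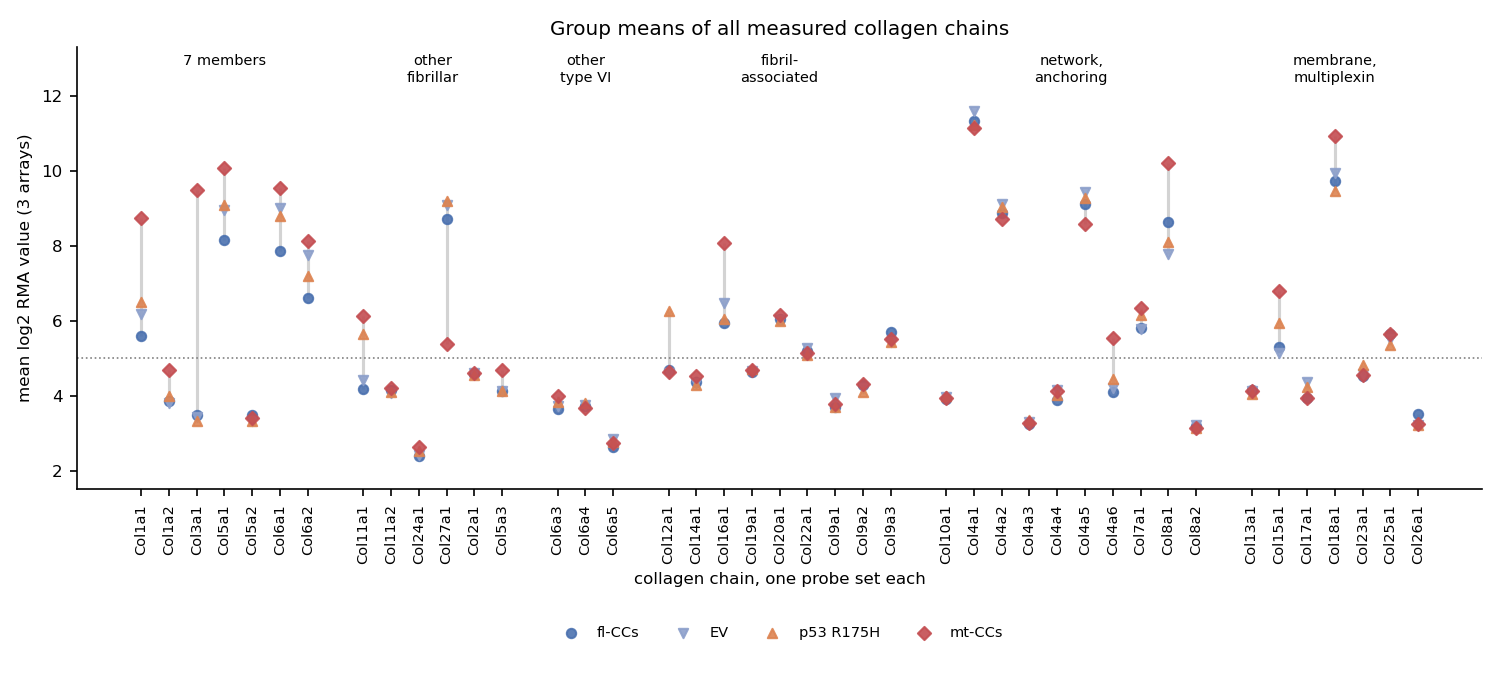
Mean log2 RMA value over 3 arrays (vertical axis) of each measured collagen chain, at the probe set brightest on average, in the 4 groups; grey lines join the lowest and highest group mean, and the dotted line marks 5. Most further chains lie under 5 or show little spread, Col27a1 is lowest in mt-CCs and Col12a1 stands out in p53 R175H cells with a mean of 6.26.

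Between p53 R175H and EV cells 3 of the 35 other chains were higher and 3 lower, against 15.3% and 15.1% of all genes. Col11a1 rose by at least 0.66 (limma adjusted p = 0.00113 for the fitted difference). Col12a1, a fibril-associated chain, had a mean of 6.26 in p53 R175H cells and 4.61 in EV cells at its brightest probe set (adjusted p = 3.59e-04), while mt-CCs had 4.63. Col8a1 was higher by 0.44 at its most significant probe set (adjusted p = 0.0463). It did not pass at its brightest probe set (0.32, adjusted p = 0.170). Nor did it pass at the probe set that gave the rise of 1.74 in mt-CCs (0.16, adjusted p = 0.386). Col16a1 and Col18a1, both higher in mt-CCs against fl-CCs, fell by 0.41 and 0.43 (adjusted p = 0.0225 and 0.00151). Col4a1 fell by 0.35 at its brightest probe set (adjusted p = 0.0141). The Col4a1 probe set that was lower in mt-CCs against fl-CCs did not pass here (-0.08, adjusted p = 0.590). Between EV cells and fl-CCs 2 chains were higher and 1 lower, against 10.4% and 9.2% of all genes. Col16a1 was higher by 0.52 (adjusted p = 0.00964) and Col8a1 lower (-1.20, adjusted p = 1.80e-04). Col8a1 was also lower at its brightest probe set (-0.86, adjusted p = 0.00287). At the probe set of the 1.74 rise it was lower as well (-0.44, adjusted p = 0.0236).

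Genes that make and process collagen moved in both directions. Of 21 measured genes for folding and modifying collagen, 11 were higher in mt-CCs relative to fl-CCs and 4 lower, with a median difference of 0.27. Over all genes 22.2% were higher in this comparison and 21.1% lower, so the lower share was near that of all genes. The highest rises were those of P4ha3, a prolyl 4-hydroxylase subunit (2.22 ± 0.12), P3h3, a prolyl 3-hydroxylase family member (2.20 ± 0.17), and P4ha2 (1.00 ± 0.22). Tmem38b (-0.74), Plod2, a lysyl hydroxylase (-0.63), and Serpinh1, the collagen chaperone HSP47 (-0.34), were lower. Of 10 genes that trim and cross-link procollagen 5 were higher and 0 lower, with a median of 0.65. They included Loxl3, a lysyl oxidase family member (3.20 ± 0.16), Pcolce, an enhancer of C-propeptide removal (1.96 ± 0.09), and Bmp1, the C-proteinase (1.39 ± 0.17).

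In p53 R175H cells against EV cells the folding and modifying genes gave 3 higher and 7 lower of 21, against 15.3% and 15.1% of all genes. The higher share was thus near that of all genes. P4ha2 fell by 2.29 and Plod2 by 1.52 (limma adjusted p = 1.68e-05 and 5.14e-06), while Serpinh1 rose by 0.51. In EV cells against fl-CCs 6 of 21 were higher and 0 lower, against 10.4% and 9.2% of all genes, with P4ha2 at 1.21 and Plod2 at 0.93. The EV arrays enter both comparisons with opposite sign.

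Of 25 genes for proteins that bind or organize fibrils, 14 were higher in mt-CCs and 2 lower, against 22.2% and 21.1% of all genes, with a median of 0.60. Tgfbi rose by at least 3.90, the thrombospondin Thbs2 by at least 2.17 and the proteoglycan Bgn by 2.51 ± 0.13, while Ccn2 (-1.16) and Fbln2 (-0.38) were lower. Of 14 collagen receptors 3 were higher and 4 lower, with a median of 0.05, near the 22.2% and 21.1% of all genes. Itga1 and Itga2, the collagen-binding integrin subunits, fell by 4.38 and 1.57, and Itgb1, their partner, by 0.45, while Cd44 (1.24) and Antxr1 (0.46) rose and Lair1 passed near background. Of 12 collagen-degrading enzymes 5 were higher and 1 lower, again against 22.2% and 21.1%, with a median of 0.25. The higher ones included Mmp2 (at least 1.85), Ctsb (2.14) and Ctsl (1.38), and the lower one was Mmp13, a collagenase (-2.60). The mean of Mmp13 in mt-CCs was 4.58, under 5, and measured from 6 its fall was at least 1.18.

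In p53 R175H cells against EV cells Mmp13, Itga1 and Itga2 were higher, by 3.99, 1.64 and 1.19 (limma adjusted p = 5.42e-05, 2.36e-06 and 2.54e-05), at the same probe sets. Mmp13 and Itga1 were lower in EV cells than in fl-CCs, with differences of -2.09 and -0.96. The mean of Mmp13 in EV cells was 5.08, close to background. Measured from 6, its rise in p53 R175H cells was at least 3.08 and its fall in EV cells at least 1.18.

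Markers of other cells were read beside the collagens. Of 15 fibroblast markers other than collagens, 6 were higher in mt-CCs relative to fl-CCs and 2 lower, against 22.2% and 21.1% of all genes. Lum, Pdpn, Thy1, Fap, Postn, Dpt and Mfap5 lay under 5 in all 12 arrays and Dcn in 10 of 12. Pdgfra (means of 4.95 in fl-CCs and 6.95 in mt-CCs) and Pdgfrb (6.11 and 7.37) were higher in mt-CCs. So were Fbln1 (10.67 and 11.77), S100a4 (12.94 and 13.63), Gsn and Dcn. Dcn had means of 4.53 and 4.96 at its brightest probe set, both under 5. Acta2 (5.52 and 4.92) and Fbln2 (10.83 and 10.46) were lower. The log2 summed level of the list was 13.84 to 13.94 in fl-CCs, 13.91 to 13.98 in EV cells, 13.89 to 14.01 in p53 R175H cells and 14.44 to 14.49 in mt-CCs. S100a4 had the highest mean of the list in every group and so weighed most in this sum.

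The epithelial identity of the cells was checked in the same way. Krt8, Krt18 and Krt19, keratins of ductal cells, had means over 12 in all groups, with 13.66 in fl-CCs and 13.68 in mt-CCs for Krt19. Esrp1 and Cldn4 lay under 5 in all 12 arrays and Cldn7 in 6 of 12. Of 11 epithelial markers 8 were lower in mt-CCs and 1 higher, against 21.1% and 22.2% of all genes. Cdh1, which encodes E-cadherin, had means of 12.25 in fl-CCs and 10.01 in mt-CCs, Epcam 9.78 and 6.88, Krt7 12.96 and 8.52, and Muc1 11.21 and 5.74. The log2 summed level of the list was 15.67 to 15.74 in fl-CCs, 15.62 to 15.69 in EV cells, 15.44 to 15.47 in p53 R175H cells and 14.98 to 15.08 in mt-CCs. In lysates of cultures, more cells of a type and more RNA per cell cannot be told apart, and the part of these markers in the collagen values was not tested. Of 5 pancreatic stellate cell markers 1 was higher and 0 lower in mt-CCs, of 8 endothelial markers 1 and 3, of 8 leukocyte markers 1 and 2, and of 4 acinar markers 1 and 0. These counts stand beside the same shares of all genes. Of the stellate list, Vim had means of 13.51 in fl-CCs, 13.56 in EV cells, 13.61 in p53 R175H cells and 13.71 in mt-CCs. Its other members read low. Des had means of 5.73 in fl-CCs and 5.77 in mt-CCs, and Gfap of 5.13 and 5.05. Rgs5 and Lrat lay under 5 in all 12 arrays. All 8 endothelial markers had means under 5 in both lines.

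The genes nearest to each member in pattern, over the 12 arrays after each probe set was centred on its mean, were found for the 5 members whose group means spanned at least 1. For Col3a1 they were Armcx2, Ccn3 and Gulp1, with root mean square differences of 0.19, 0.19 and 0.22. All 3 were near background outside mt-CCs, with means of 8.42, 9.18 and 9.09 in mt-CCs. For Col1a1 they were Shank3 (0.27), Egfr, the epidermal growth factor receptor (0.30), and Tafa5 (0.31). For Col5a1 they were Cast (0.13), Mid2 (0.17) and Zfp467 (0.17).
The type VI chains had other neighbours in pattern. For Col6a1 these were Rab11fip5 (0.15), Irgm2 (0.16) and Sgk1 (0.17), and for Col6a2 3110039M20Rik (0.15), Rwdd3 (0.17) and Zfp462 (0.17).

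Several members lie side by side in the genome. The protein-coding genes up to 2 places from each member were read after the values had been seen. Those measured around Col1a1 and Col5a1 did not pass between mt-CCs and fl-CCs. Rxra, before Col5a1, was lower in EV cells than in fl-CCs (-0.47, limma adjusted p = 0.00384). Against EV cells, Rxra (0.77, adjusted p = 6.35e-05) and Wdr5 before it (0.56, adjusted p = 7.17e-04) were higher in p53 R175H cells. The rest around Col1a1 and Col5a1 passed in neither of these comparisons. On chromosome 1 the protein-coding genes run Gulp1, Col3a1, Col5a2, Wdr75 in RefSeq. Gulp1, an adaptor of cell engulfment, had means of 3.06 in fl-CCs, 3.18 in EV cells, 3.43 in p53 R175H cells and 8.52 in mt-CCs at 1432092_a_at (limma adjusted p = 2.66e-10 for mt-CCs against fl-CCs). Its other 2 probe sets were also near background outside mt-CCs, with 9.09 and 7.97 in mt-CCs. Col5a2, on the other side of Col3a1, was near background in every array, and Wdr75 did not pass, with 9.57 in fl-CCs and 9.43 in mt-CCs (adjusted p = 0.307). Slc40a1, which follows Wdr75, was lower in mt-CCs (-1.56, limma adjusted p = 6.91e-07), and Mettl21e, before Gulp1, did not pass (adjusted p = 0.590). Gulp1 and Col3a1 thus shared a pattern that the adjacent Col5a2 did not show.

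On chromosome 10 Col6a2, Col6a1 and Pcbp3 follow each other. Pcbp3, which encodes a poly(C)-binding protein, had means of 8.37 in fl-CCs, 9.85 in EV cells, 9.05 in p53 R175H cells and 9.77 in mt-CCs at 1437722_x_at. It was higher by 1.40 ± 0.12 in mt-CCs (limma adjusted p = 1.85e-06) and by 1.48 ± 0.12 in EV cells (adjusted p = 1.03e-05), both against fl-CCs. In p53 R175H cells it was lower than in EV cells, with a difference of -0.80 (adjusted p = 5.20e-04). Its second probe set gave 1.79 and 1.73 for mt-CCs and EV cells. Spatc1l and Ftcd, before Col6a2, and Slc19a1, after Pcbp3, did not pass between mt-CCs and fl-CCs (limma adjusted p = 0.0885, 0.503 and 0.815). The means of Col6a1, Col6a2 and Pcbp3 thus shared the order fl-CCs, p53 R175H, EV. The step between p53 R175H and EV did not pass for Col6a1 (limma adjusted p = 0.249) or for Col6a2 at 1426947_x_at (0.0709).

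On chromosome 6 Col1a2 lies between Bet1 and Casd1, with Gng11 before Bet1, and Sgce follows Casd1. Gng11 had means of 4.64 in fl-CCs, 5.47 in EV cells, 4.46 in p53 R175H cells and 5.65 in mt-CCs. It passed between mt-CCs and fl-CCs (limma adjusted p = 0.00454). Sgce, which encodes a sarcoglycan, had means of 3.46, 3.32 and 3.38 in fl-CCs, EV and p53 R175H cells and 9.01 in mt-CCs at 1420688_a_at (limma adjusted p = 5.79e-12). At 1443518_at it was near background in all groups. Bet1 and Casd1, between 8.89 and 10.13 in all group means, did not pass between mt-CCs and fl-CCs (adjusted p = 0.914 and 0.0979). Col1a2 had means of at most 4.67 in the same groups.

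**Figure D4:**
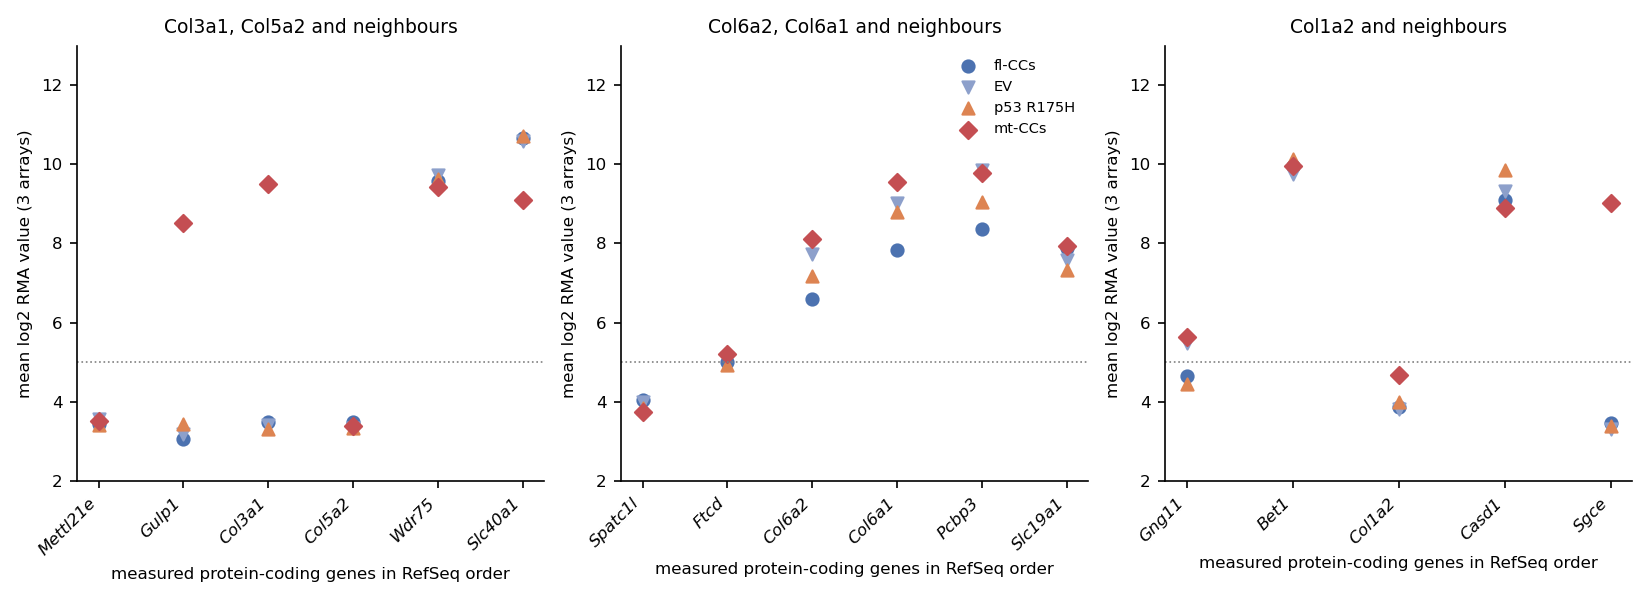
Mean log2 RMA value over 3 arrays (vertical axis) of collagen genes and the measured protein-coding genes next to them, in RefSeq order, in the 4 groups; the dotted line marks 5. Gulp1 and Col3a1 are near 9 in mt-CCs and under 5 elsewhere while Col5a2 is under 5 in all groups, Col6a2, Col6a1 and Pcbp3 are lowest in fl-CCs, and Sgce but not Col1a2 is high in mt-CCs.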

How the data were processed

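The authors extracted RNA with RNeasy, hybridized biotin-labeled cDNA, examined array quality in affy and used RMA, listed in the submitters' processing notes with no version, for summary and normalization. What they deposited is a table of log2 values from RMA, and no scan dates or detection calls were used here. Once sorted, the arrays differed nowhere by more than 0.018, so a change shared by most genes would not be seen.

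Of 45101 probe sets, 64 AFFX controls were dropped and 45037 were tested with limma 3.58.1 in R 4.3.3, by lmFit on the 4 group means over 12 arrays and eBayes. Benjamini-Hochberg adjustment ran over all of them, and a probe set was called at 0.05 or less with no fold limit, as in the methods, which name Partek. Gene names came from the platform annotation, in which 34945 probe sets had 1 symbol, 932 several and 9160 none. RefSeq gene numbers of GRCm38.p6 matched 34741, and 0 symbols changed. The most significant probe set of a gene stood for it. Where a group lay under 5 on all arrays, differences were measured from 5 and given as "at least", and where both means lay under 5 none was given. The fits were tested on simulated data.

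The members and 10 further gene lists and 6 marker lists (183 genes, 168 measured), written from general knowledge, were chosen with earlier results of these data known. In each list up to 3 genes with the largest rises and 3 with the largest falls in mt-CCs against fl-CCs are named. The same replicate number did not pair arrays. Over 25807 probe sets, deviations of same-numbered arrays correlated at -0.15 to 0.07 in 18 pairs, so the fit has no block. Upstream windows came from RefSeq promoter sequences of GRCm38.p6, and protein sequences were not used here.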

Additional observations from a re-analysis of the deposited data

Results flagged for a closer look

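At 9 probe sets of the members measured above 5 in some group, the difference between mt-CCs and fl-CCs exceeded that between p53 R175H and EV cells by the limma test of the difference itself. For Col1a1 the excess was 2.64 ± 0.20 at 1423669_at and 2.85 ± 0.37 at 1455494_at (SE, adjusted p = 9.09e-07 and 9.88e-05). For Col3a1 the fitted excess was 6.10 at 1427883_a_at (adjusted p = 1.85e-09), in which 3 of the 4 group means were near background, so that its size is not a measured one. For Col5a1 it was 1.76 at 1416740_at, 1.81 at 1416741_at and 1.92 at 1434479_at (adjusted p = 3.38e-05, 7.41e-06 and 1.22e-06). For Col6a1 it was 1.90 (adjusted p = 2.72e-06), and for Col6a2 1.81 at 1426947_x_at and 2.08 at 1452250_a_at (adjusted p = 7.26e-05 and 1.30e-05). The EV and p53 R175H arrays come from 1 parental line, while mt-CCs and fl-CCs are different lines, so that line and p53 allele cannot be told apart in the first difference. Groups of 3 arrays were not tested for single arrays that stand apart.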

How the results depend on the processing

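Between mt-CCs and fl-CCs 188 of 188 single values kept their direction and their side of the threshold under 21 alternatives, which covered the arrays fitted, the replicate block, moderation, a trend of variance with intensity, a filter on means under 5, weights for arrays, control probe sets, 2 normalizations and each array left out. The same held for 179 of 179 values of the difference between the 2 contrasts, for which a fit of only the groups compared is the main fit. The counts of 11 called probe sets in both ran from 8, with the filter, to 11.

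Between p53 R175H and EV cells the count of 2 became 1 with the replicate number as a block, 1 in the unmoderated model, 1 with an intensity trend and 0 where a log2 change of 1 or more was also required, ran from 0 to 2 as single arrays were left out, and became 3 with the filter, where Col6a2 at 1426947_x_at passed (adjusted p = 0.0428). It was 1 gene with the highest-mean probe set in place of the most significant one. Here 16 of 168 single values lost the call and 2 gained it, all of Col5a1 and Col6a2, and Col1a1 at 1423669_at, not called, went from -0.06 to 0.025 without EV replicate 1 and to 0.016 without p53 R175H replicate 1, and over all arrays left out singly from -0.18 to 0.025. The replicate block ended the Col5a1 call (adjusted p = 0.0616, limma) and changed no other call, and arrays correlated best with their own number in 10 of 36 cases. Between EV cells and fl-CCs the count of 6 became 3 with that same limit, and 3 of 168 values, all of Col1a1, gained the call. The bound of 4.50 for Col3a1 was 3.50 from a level of 6 and 5.50 from 4.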
